A study of Mus musculus with 51 samples.

Results

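Olfr11 and Olfr1312 are the olfactory receptor (OR) genes with the largest fold changes after (E)-β-farnesene in these data, and they were selected on that response. The response of Olfr11 to 100% SBT was also known when it was taken up. Both receptors were found by gene symbol, as 2 of the 1117 OR genes in the count tables. The libraries are pS6-IP-Seq libraries, each from the whole olfactory mucosa of a C57BL/6J mouse about 3 weeks old, of mixed sex and litter matched, which inhaled an odorant or diluent for 1 hr. They comprise 30 libraries in 10 odor groups and 21 in 7 control groups, with 3 per group. The odorants were 100% (E)-β-farnesene, 1% 2,5-DMP, 100 μM and 10 mM MTMT, 1% β-caryophyllene, 77% DHB, 100 mM CPD (cyclopentadecanone) and 0.01%, 1% and 100% SBT. The labels name no transgene or deleted gene. Farnesene, 2,5-DMP and 100 μM MTMT shared the same 3 control libraries, and 1% and 100% SBT shared another 3, so comparisons that share controls are not independent. The labels do not name the diluent of each control. The study's methods give water for most odorants and ethanol for MTMT and CPD, so the controls shared by farnesene, 2,5-DMP and 100 μM MTMT may match the diluent of only some of these odorants.

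ORs are G protein-coupled receptors of olfactory sensory neurons (OSNs), and each mature OSN expresses 1 OR allele out of a very large family. A given odorant activates the OSNs of a subset of ORs, and recruits more of them as its concentration rises. Neural activity leads to phosphorylation of the ribosomal protein S6, so that an antibody against phosphorylated S6 (pS6) retrieves ribosomes and their mRNA from recently active cells. An OR whose OSNs were activated then takes a larger share of the OR reads than in diluent-exposed mice. In tissue of this kind, more active OSNs and more receptor mRNA per active OSN cannot be told apart. Farnesene is a sesquiterpene reported in the preputial glands and urine of male mice, and SBT is a thiazoline of male mouse urine. β-caryophyllene is also a sesquiterpene.

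Neither receptor is a close relative of the other. Olfr11 (ENSMUSG00000036658) lies at chr13:21636623-21642518 on the minus strand of GRCm38, with 1 coding exon of 942 bases including the stop codon at chr13:21638583-21639521 (stop codon not counted in these coordinates). Olfr1312 (ENSMUSG00000074947) lies at chr2:112038068-112050238, also on the minus strand, with 1 coding exon of 954 bases at chr2:112042080-112043030. Aligned bases that matched made up 60.9% of the length of the shorter coding sequence, and identity is given in this way throughout. Of 1113 other ORs compared, Olfr1312 was only rank 898 in identity to Olfr11, whose median identity to an OR was 62.2%, and Olfr11 was rank 701 in identity to Olfr1312, whose median was 61.4%. The stretch of 30 coding bases in which these receptors are most alike is printed with the closest relative of each, Olfr1360 for Olfr11 and Olfr1308 for Olfr1312. It was picked for its likeness, so matches in it do not stand for the whole coding sequence. How alike other ORs are in this stretch was not examined. Capitals mark, in the first pair, bases that differ between Olfr11 and Olfr1312, and in the second pair, bases that differ from the receptor the relative belongs to. The Olfr11 stretch lies at chr13:21639142-21639171 and that of Olfr1312 at chr2:112042660-112042689, and each is written 5′ to 3′ on the minus strand, from the GENCODE M21 models on GRCm38.
Olfr11: catgTccttCgacagGtTtgtAgccatatg
Olfr1312: catgGccttTgacagAtAtgtGgccatatg
Olfr1360: catgtccttTgacaggtttgtagccatCtg
Olfr1308: catggcctttgacagatatgtggccatatg
Olfr11 and Olfr1312 matched at 25 of these 30 bases, Olfr1360 differed from Olfr11 at 2 and Olfr1308 did not differ from Olfr1312. Longer shared stretches were few. No stretch of 50 coding bases of Olfr11, out of 890, recurred in the transcript of another annotated gene, and for Olfr1312 it was 2 of 902. With untranslated exons included, 7.25% of the 3216 stretches of Olfr11 and 0.353% of the 5389 of Olfr1312 recurred elsewhere.

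Each library held between 27301 and 160001 OR reads (median 93870). The shallowest group was the 1% and 100% SBT control, with 27301 to 57154. In that group's shallowest library Olfr11 had 21 reads, a share of 0.0769% with a 95% Wilson interval of 0.0503% to 0.118%, and Olfr1312 had 10 reads, a share of 0.0366% with an interval of 0.0199% to 0.0674%. These intervals cover counting error only. All 51 pairs of libraries within a group differed by more than counting noise, by a chi-squared per degree of freedom of 4.92 to 25.5. The SDs below are therefore spreads between the libraries of a group, and the SEs come from the edgeR fit. Differences between mice and between library preparations were not separated. Genes other than ORs, markers of other cell types included, were not analysed here.

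In diluent-exposed mice both receptors held a small part of the OR reads. The share of Olfr11 over the 21 control libraries ran from 0.057% to 0.161% with a median of 0.0874%, and that of Olfr1312 from 0.0219% to 0.0954% with a median of 0.0615%. Reads were also counted per kilobase of exon, to set these receptors against other ORs. Olfr11 then ranked between 154 and 467 of the 1117 ORs in these libraries (median rank 320). Olfr1312 ranked between 458 and 900 (median rank 617). Olfr11 was thus of middle to upper rank among the pS6-captured OR reads of control mice, and Olfr1312 of middle to lower rank. Libraries made without pS6 capture were not analysed here, so these ranks do not give the level of a receptor in the mucosa. The ranks also rest on the annotated exon length, 3265 bases for Olfr11 and 5347 for Olfr1312. In farnesene-exposed mice Olfr11 ranked 25 to 32 and Olfr1312 ranked 61 to 103.

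The farnesene comparison chose both receptors, and its values are given without a test. Olfr11 had 671, 697 and 880 reads in the 3 farnesene libraries and 59, 120 and 98 in the controls. As shares these were 0.566%, 0.562% and 0.626% after farnesene and 0.0943%, 0.0961% and 0.0794% after diluent. The groups lay far apart, and the mean share after farnesene (0.585% ± 0.0361, SD, n = 3) was 6.5 times that of the controls (0.0899% ± 0.00917, SD, n = 3). Olfr1312 had 550, 632 and 524 reads after farnesene and 56, 77 and 74 in the controls, with shares of 0.464%, 0.51% and 0.373% against 0.0896%, 0.0616% and 0.06%. Its mean share after farnesene (0.449% ± 0.0696, SD, n = 3) was 6.38 times that of the controls (0.0704% ± 0.0166, SD, n = 3). The fitted log2 fold changes were 2.75 (SE 0.26) for Olfr11 and 2.73 (SE 0.28) for Olfr1312, ranks 1 and 2 by size among 1071 ORs tested. In this comparison 19 ORs passed an adjusted p of 0.05 in edgeR's quasi-likelihood test, 1.77% of those tested, and 5.32% of ORs had all farnesene libraries above all controls. The members were selected on these values, so nothing is read from those shares.

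**Figure D1:**
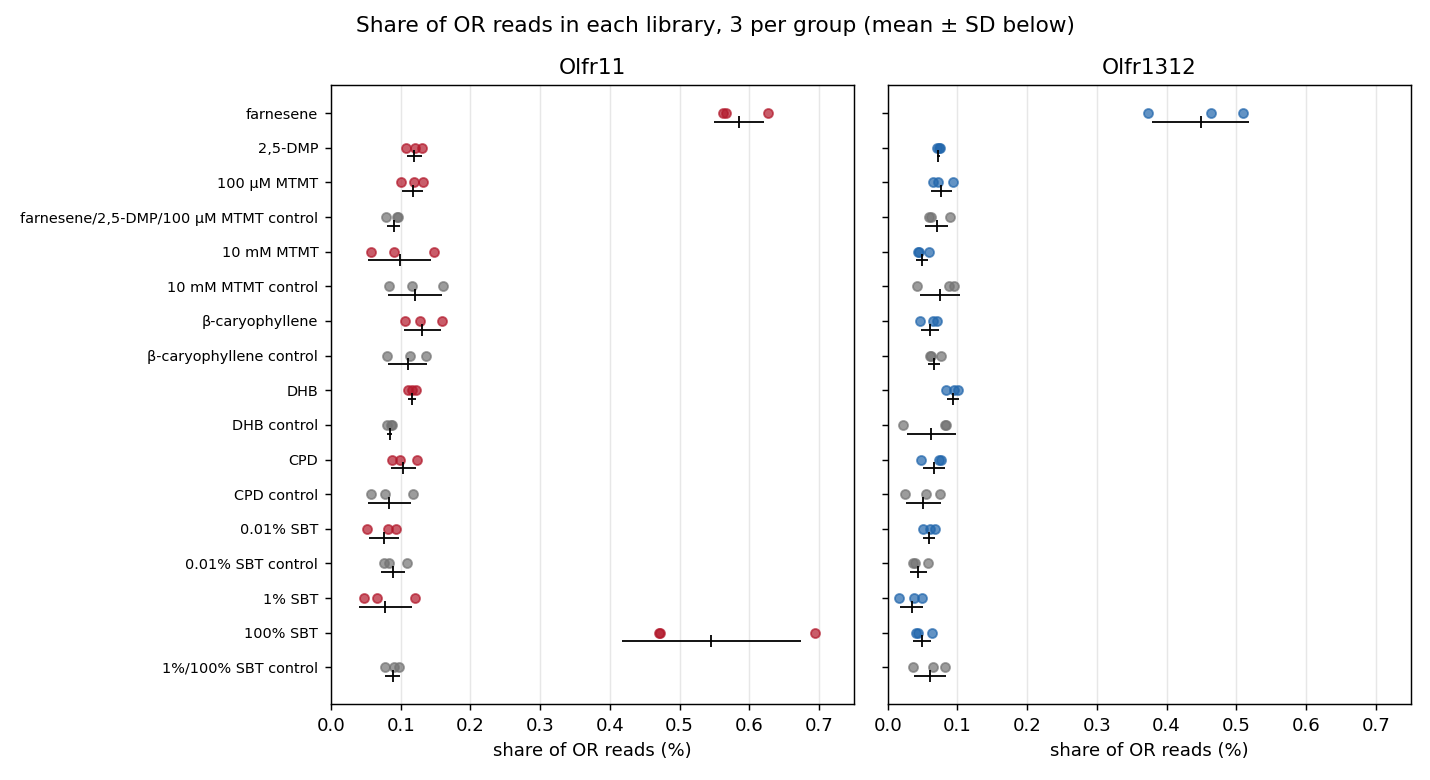
Share of all OR reads taken by Olfr11 (left) and Olfr1312 (right) in each of 51 libraries, in percent; points are libraries, colored for odor and grey for control, and the black bar under each group is the mean ± SD of its 3 libraries. Olfr11 stands at 0.562% to 0.627% after farnesene and at 0.47% to 0.694% after 100% SBT, while Olfr1312 stands at 0.373% to 0.51% after farnesene and at or below 0.101% in every other group.

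Of the 9 other comparisons, Olfr11 passed the threshold in 1, undiluted SBT, and Olfr1312 in 0. Olfr11 rose there to about the share it had after farnesene. Olfr11 had 384, 725 and 272 reads in the 100% SBT libraries, shares of 0.47%, 0.694% and 0.473%, against 40, 56 and 21 reads in the controls, shares of 0.0909%, 0.098% and 0.0769%. Every 100% SBT library stood above every control, with mean shares of 0.546% ± 0.128 (SD, n = 3) and 0.0886% ± 0.0107 (SD, n = 3), a ratio of 6.16. The log2 fold change was 3.00 (SE 0.32, 95% interval 2.32 to 3.69, edgeR quasi-likelihood test, adjusted p = 7.672e-05). That was rank 27 by size among 1050 ORs tested. With libraries scaled to their OR totals, in place of TMM factors, the fold change of Olfr11 was 2.61. This response was known from earlier results of the same data when Olfr11 was taken up. The exact permutation test on the share, two-sided, gave p = 0.1, the smallest that 3 libraries against 3 allow. Undiluted SBT moved many ORs, with 120 of 1050 past the threshold (112 higher and 8 lower), which is 11.4% of those tested. With libraries scaled to their OR totals the split was 85 higher and 42 lower. Of all ORs, 13.3% had all their 100% SBT libraries above all controls.

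Olfr1312 had 52, 45 and 23 reads after 100% SBT, shares of 0.0637%, 0.0431% and 0.04%, against 36, 37 and 10 reads in the controls, shares of 0.0818%, 0.0647% and 0.0366%. The groups overlapped, and the odor libraries filled the lower and middle part of the control range. The log2 fold change was 0.05 (SE 0.45, 95% interval -0.92 to 1.03, adjusted p = 0.975). When libraries were scaled to their OR totals, in place of TMM factors, the value was -0.34, and the median of all ORs moved by -0.39 as well. The libraries of this experiment carry label prefixes, 1 shared by replicates 1 and 2 and another by replicate 3. Within these prefixes the mean share of Olfr11 was 6.17 and 6.14 times that of the controls, and the share of Olfr1312 was 0.729 and 1.09 times.

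The rise of Olfr11 was seen only at the undiluted dose among the SBT doses tested. At 1% SBT it had 50, 44 and 30 reads, shares of 0.121%, 0.0663% and 0.0471%, which lay on both sides of the control shares. The log2 fold change was -0.04 (SE 0.49, adjusted p = 0.998), in a comparison where 0.863% of ORs were past the threshold. At 0.01% SBT it had 132, 93 and 49 reads, shares of 0.0825%, 0.0933% and 0.0513%, against 149, 84 and 59 reads in their own controls, shares of 0.108%, 0.0835% and 0.0756%. These groups overlapped as well, with a log2 fold change of -0.23 (SE 0.29, adjusted p = 0.999), where 0.466% of ORs were past the threshold. The dose difference itself was tested, on the same 100% SBT libraries whose response was known when Olfr11 was taken up. These tests are therefore not independent of that choice. From 1% to 100% SBT, Olfr11 rose by 3.09 on the log2 scale (SE 0.42, 95% interval 2.21 to 3.97, edgeR adjusted p = 0.0002282), in a contrast that called 7.53% of ORs. From 0.01% to 100% SBT, each dose set against its own controls, it rose by 3.27 (SE 0.52, 95% interval 2.21 to 4.34, edgeR adjusted p = 0.0004687), in a contrast that called 6.18% of ORs.

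Olfr1312 did not pass the test at any SBT dose. At 1% SBT it had 7, 25 and 31 reads, shares of 0.0169%, 0.0377% and 0.0487%, the lowest group mean of the series (0.0344% ± 0.0161, SD, n = 3). The log2 fold change was -0.72 (SE 0.58, adjusted p = 0.994), and the lowest library rests on 7 reads of 41426. At 0.01% SBT the log2 fold change was 0.44 (SE 0.32, adjusted p = 0.999). The dose differences were 0.80 (SE 0.52, 95% interval -0.30 to 1.89, edgeR adjusted p = 0.529) from 1% to 100% and -0.36 (SE 0.61, 95% interval -1.62 to 0.91, edgeR adjusted p = 0.904) from 0.01% to 100%.

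**Figure D2:**
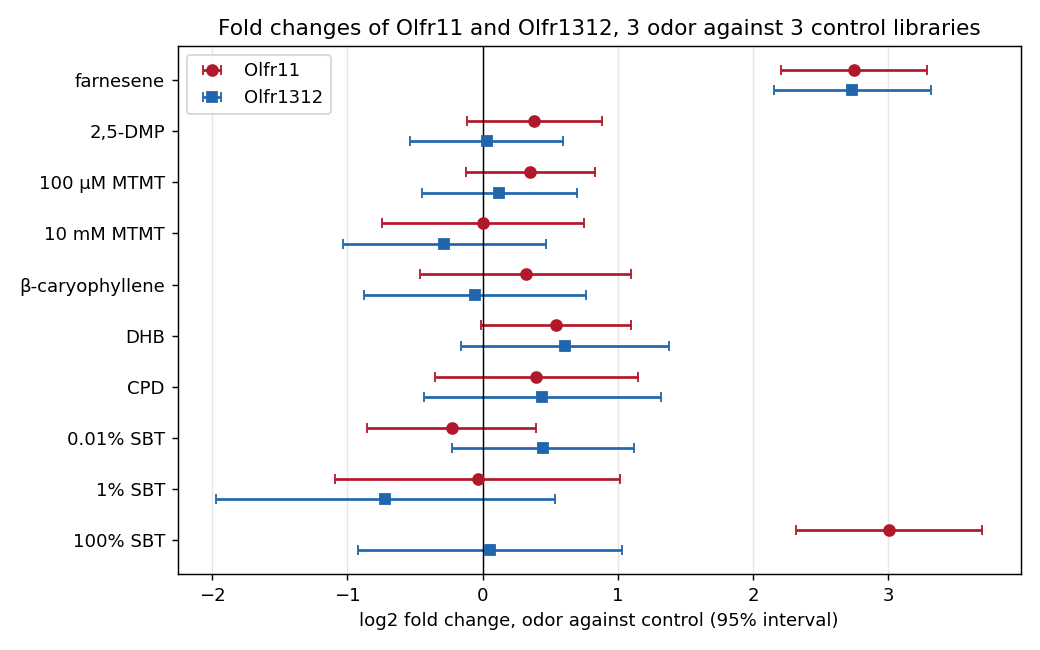
Log2 fold change of odor against control for Olfr11 (circles) and Olfr1312 (squares) in the 10 comparisons, with 95% intervals from the edgeR quasi-likelihood fit of 3 odor and 3 control libraries each. The farnesene values chose the receptors and are drawn as a description. Among the other 9 comparisons the interval of Olfr11 after 100% SBT, 2.32 to 3.69, is the only one that does not include 0.

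Across the remaining odorants neither receptor passed the threshold. DHB is a brevicomin of male mouse urine. Olfr11 had 97, 165 and 157 reads after DHB, shares of 0.116%, 0.122% and 0.11%, against 51, 106 and 116 in the controls, shares of 0.0797%, 0.0874% and 0.0855%. The groups did not overlap, as was the case for 3.95% of ORs in this direction, and the mean shares were 0.116% ± 0.0059 and 0.0842% ± 0.004 (SD, n = 3 each). The log2 fold change was 0.55 (SE 0.27, 95% interval -0.01 to 1.10, edgeR adjusted p = 0.994), where 0.564% of ORs were past the threshold. Olfr1312 had 80, 114 and 144 reads, shares of 0.0954%, 0.0842% and 0.101%, against 14, 100 and 114 reads, shares of 0.0219%, 0.0824% and 0.084%. Here 1 control library was far lower than the others, and the highest control and the lowest odor library were nearly equal. The log2 fold change was 0.61 (SE 0.37, 95% interval -0.16 to 1.38, edgeR adjusted p = 0.994), and 0.23 without that control library.

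2,5-DMP and 100 μM MTMT were set against the controls of the farnesene mice. Olfr11 had 122, 124 and 180 reads after 2,5-DMP, shares of 0.13%, 0.108% and 0.121%. After 100 μM MTMT it had 138, 133 and 110 reads, shares of 0.132%, 0.119% and 0.101%. In both groups every library lay above the controls' highest share of 0.0961%, as did 6.26% of ORs after 2,5-DMP and 4.87% after 100 μM MTMT in this direction. The log2 fold changes were 0.38 (SE 0.24, adjusted p = 0.991) and 0.35 (SE 0.23, adjusted p = 0.955), in comparisons where 0.841% and 0.281% of ORs passed the threshold. Both comparisons use the same controls, and when replicate numbers were fitted as a block, 17 ORs passed after 2,5-DMP in place of 9, Olfr11 not among them (adjusted p = 0.977). Olfr1312 overlapped the controls in both groups, with log2 fold changes of 0.03 (SE 0.27) and 0.12 (SE 0.27).

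For β-caryophyllene, 10 mM MTMT and CPD, the edgeR quasi-likelihood test called 0 ORs, so percent called was 0 in each. An unadjusted p under 0.05 was found for 51, 69 and 40 ORs, and DESeq2 called 0, 15 and 1. β-caryophyllene was given at 1% and farnesene at 100%, so these sesquiterpenes cannot be compared at a matched dose and their values stand side by side. After β-caryophyllene Olfr11 had shares of 0.107%, 0.127% and 0.159% against 0.136%, 0.113% and 0.0805% in its controls. Olfr1312 had 0.071%, 0.046% and 0.0644% against 0.0761%, 0.0609% and 0.0615%. Both overlapped their controls, with log2 fold changes of 0.32 (SE 0.36) and -0.06 (SE 0.38). After CPD, a macrocyclic musk, the log2 fold changes were 0.40 (SE 0.34) for Olfr11 and 0.44 (SE 0.40) for Olfr1312. After 10 mM MTMT they were 0.00 (SE 0.33) and -0.28 (SE 0.34). The upper 95% limits in these 3 comparisons were 0.75 to 1.15 for Olfr11 and 0.47 to 1.32 for Olfr1312.

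The order of the group means places farnesene (0.585%) and 100% SBT (0.546%) at the top for Olfr11, and the libraries of these groups overlap each other. The step to the next group, β-caryophyllene at 0.131%, is the only one between neighbors in this order whose libraries do not overlap. That group, the other 7 odor groups and the 7 control groups run together from there down to 0.0757%. For Olfr1312 the only such step is the first, from farnesene at 0.449% to DHB at 0.0935%, and the remaining groups, 100% SBT among them in place 15 of 17, run down to 0.0344%.

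The ratio of the receptors within a library does not depend on how libraries are scaled. Over the 21 control libraries there were 0.766 to 3.64 reads of Olfr11 per read of Olfr1312, with a median of 1.69. In the farnesene libraries, described without a test, the ratio was 1.22, 1.1 and 1.68, against 1.05, 1.56 and 1.32 in the matching controls. After 100% SBT the ratio was 7.38, 16.1 and 11.8, and in the matching controls 1.11, 1.51 and 2.1. The groups did not overlap, and the log2 ratio of shares (with 5 added per 100000 OR reads) was 2.79 higher after 100% SBT (exact permutation test, two-sided, p = 0.1, the smallest this design allows; p = 0.45 after Benjamini-Hochberg adjustment over 9 comparisons). The ratio fell outside its controls in 1 other comparison, 0.01% SBT, at 1.38, 1.37 and 1 against 1.89, 2.15 and 2.11 (log2 difference of -0.67, exact permutation p = 0.1, adjusted p = 0.45). There Olfr11 was slightly lower and Olfr1312 slightly higher than in the controls, and neither passed the edgeR test.

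**Figure D3:**
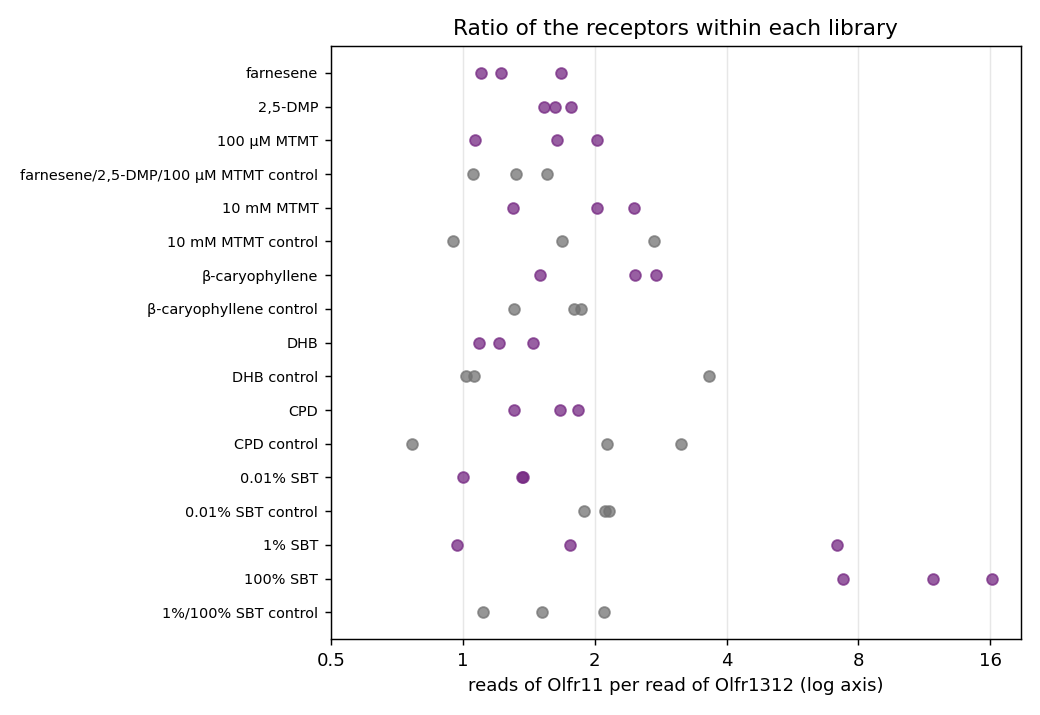
Reads of Olfr11 per read of Olfr1312 in each of the 51 libraries on a log axis, purple for odor and grey for control, 3 libraries per group. The 3 libraries of 100% SBT lie at 7.38 to 16.1, the 21 controls at 0.766 to 3.64, and 1 library of 1% SBT, with 7 reads of Olfr1312, at 7.14.

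Of the 19 ORs past the threshold after farnesene, all of them higher, 4 were also called higher after 100% SBT. They are 21.1% of the farnesene list and 3.57% of the 112 ORs higher after 100% SBT, which are 10.7% of the ORs tested there. Olfr11, selected with both responses known, is 1 of the 4, and no test of the overlap was made. The list of 19 was 12 without farnesene replicate 1, 8 without farnesene replicate 2 and 10 without control replicate 2. These experiments share no control libraries. The 4 are Olfr11, Olfr701, Olfr705 and Olfr706, and Olfr705 was named after its values were seen. Their log2 fold changes after farnesene and after 100% SBT were 2.62 and 3.28 for Olfr701, 1.82 and 1.72 for Olfr705, and 2.15 and 3.23 for Olfr706. Olfr1312 was not among them.

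**Figure D4:**
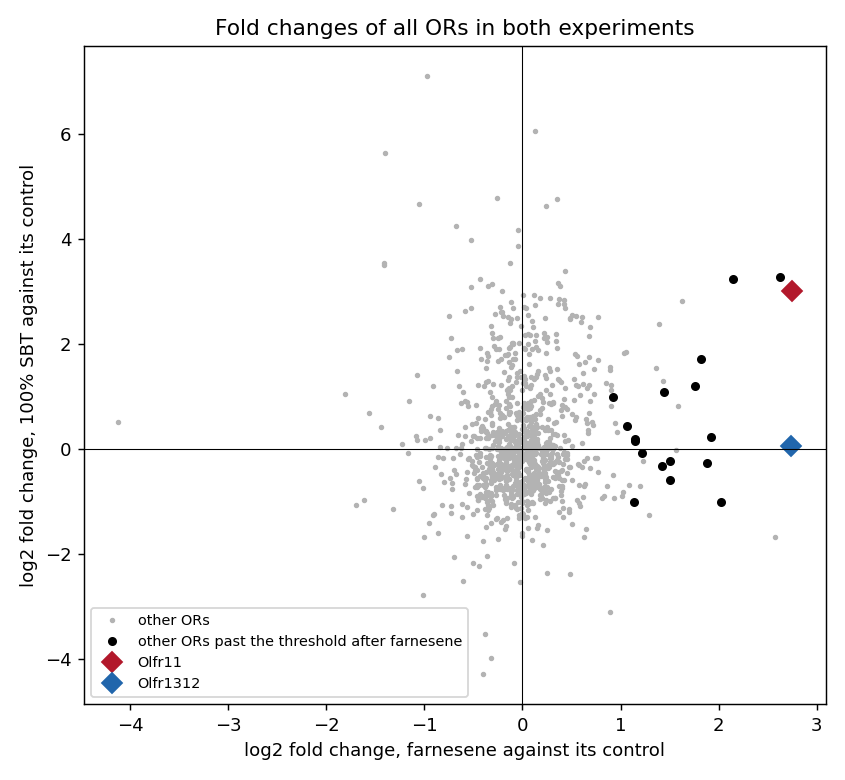
Log2 fold change after farnesene (x axis) against that after 100% SBT (y axis), each against its own controls, for all ORs tested in both; black points are the other ORs past the threshold after farnesene. Olfr11 (red diamond) lies at 2.75 and 3.00 and Olfr1312 (blue diamond) at 2.73 and 0.05.

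The ORs whose levels over the 17 groups were most like those of Olfr11 were Olfr706 (Pearson's r = 0.908), Olfr1290 (0.796), Olfr701 (0.787), Olfr47 (0.775) and Olfr180 (0.773), out of 990 ORs with enough reads. The sixth OR in this order stood at 0.728 and the median OR at -0.13. The correlations are over group means of log2 shares, which share libraries and totals. Without farnesene and 100% SBT they were -0.21 for Olfr706, 0.50 for Olfr1290, -0.08 for Olfr701, -0.04 for Olfr47 and 0.45 for Olfr180. Olfr47 had log2 fold changes of 1.45 after farnesene and 1.09 after 100% SBT. Olfr180 had 0.11 and 2.33, and Olfr1290 had 0.73 and 1.05.

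For Olfr1312 the most similar ORs were Olfr1393 (r = 0.814), Olfr124 (0.763), Olfr15 (0.749), Olfr361 (0.744) and Olfr1411 (0.737), with the sixth at 0.735. Without farnesene and 100% SBT these became 0.63, 0.78, 0.46, -0.01 and 0.22. Their log2 fold changes after farnesene were 1.92 for Olfr1393, 2.03 for Olfr361 and 1.42 for Olfr1411, which are on the list of 19, and 0.56 for Olfr124 and 0.66 for Olfr15, which are not. After 100% SBT all 5 lay between -1.002 and 0.231, and none passed the threshold. Olfr361 is among the ORs that share a stretch of 50 bases with Olfr1312. The part of shared reads in its values was not tested. Olfr11 was in place 11 among the ORs most like Olfr1312, and Olfr1312 in place 20 among those most like Olfr11 (r = 0.631, and 0.71 without farnesene and 100% SBT).

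Counts of relatives past the threshold are set beside the share of all ORs past it, 1.77% after farnesene and 11.4% after 100% SBT. None of the 5 closest of either receptor passed in either comparison, which is near that background. Sequence and position were not used to select the receptors. A relative's fold change comes from its own counts, in which RSEM divided reads shared with near-identical genes. Of the closest relatives, Olfr1308 is among the ORs that share a stretch of 50 bases with Olfr1312. The part of shared reads in its value was not tested. The 5 closest relatives of Olfr11 were Olfr1360 (77.3% identity of the coding sequence), Olfr1359 (77.2%), Olfr131 (68.4%), Olfr124 (67.6%) and Olfr986 (67.4%). Their log2 fold changes after farnesene were -0.14 (SE 0.33), -0.21 (SE 0.24), -0.03 (SE 0.25), 0.56 (SE 0.28) and 0.06 (SE 0.60), and none passed the threshold. Of the 10 closest relatives, all tested, 1 was called higher after farnesene (median 0.00, against -0.03 over all ORs tested) and 0 after 100% SBT (median -0.31, against -0.07). That 1 is Olfr132, in place 10 with 66.1% identity, which rose by 1.499 on the log2 scale (SE 0.27, edgeR adjusted p = 0.002381) and was named after its value was seen. Its value after 100% SBT was -0.60 (SE 0.33, edgeR adjusted p = 0.345).

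The 5 closest relatives of Olfr1312 were Olfr1308 (88.4%), Olfr1306 (85.8%), Olfr1307 (85%), Olfr1313 (83.4%) and Olfr1316 (82.4%). These ORs had few reads, 541 to 2025 over all 51 libraries. Olfr1308, whose printed stretch does not differ from that of Olfr1312, had a log2 fold change of 0.58 (SE 0.47) after farnesene, and Olfr1316 had 0.92 (SE 0.52), the highest of the group. Of the 10 closest relatives, 0 were called after farnesene, with a median of 0.38 against -0.03 over all ORs tested, and 0 after 100% SBT, with a median of -1.06 against -0.07. The SEs of the 10 values after 100% SBT were 0.52 to 1.25. At 1.77% and 11.4% of all ORs, counts of 0 in a list of 10 are near the background. The edgeR adjusted p of each of the 10 after farnesene was 0.992.

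**Figure D5:**
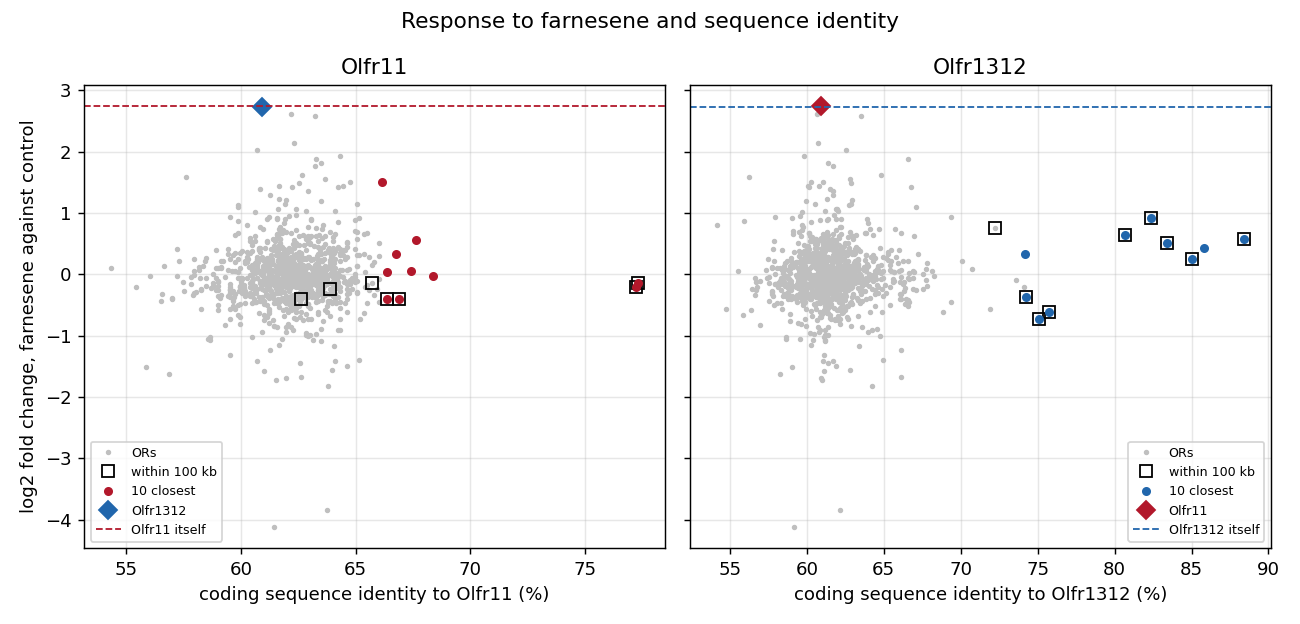
Log2 fold change after farnesene (y axis) against the identity of the coding sequence to Olfr11 (left) or Olfr1312 (right) in percent (x axis), 1 point per OR; filled circles are the 10 closest relatives, open squares the ORs within 100 kb, the diamond is the other receptor and the dashed line is the receptor's own fold change. The 10 closest relatives lie at -0.408 to 1.499 for Olfr11 and -0.73 to 0.92 for Olfr1312; the height of the line and of the other receptor, at 60.9% identity, is fixed by how the receptors were selected.

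Both genes lie in clusters of ORs. Their neighbors within 100 kb did not pass the test in either comparison, in lists so short that 0 is near the background of 1.77% after farnesene and 11.4% after 100% SBT. The median log2 fold change over all ORs tested was -0.03 and -0.07. Olfr11 has 7 such neighbors on chromosome 13, Olfr1359, Olfr1360, Olfr1361, Olfr1362, Olfr1364, Olfr1366 and Olfr1535. Their log2 fold changes lay between -0.41 and -0.14 after farnesene (median -0.24) and between -0.89 and 0.32 after 100% SBT (median -0.34). The nearest, Olfr1361, lies 14362 bases away and had -0.24 (SE 0.28) after farnesene. Olfr1312 has 9 on chromosome 2, Olfr1307, Olfr1308, Olfr1309, Olfr1310, Olfr1311, Olfr1313, Olfr1314, Olfr1316 and Olfr1317, of which 8 are also among its 10 closest relatives. Theirs lay between -0.73 and 0.92 after farnesene (median 0.51) and between -1.54 and -0.17 after 100% SBT (median -1.08). The values after 100% SBT are imprecise, with SEs of 0.56 to 1.25 and edgeR adjusted p of 0.145 to 0.956. The nearest, Olfr1311, lies 13656 bases away and had -0.61 (SE 0.41) after farnesene.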

How the data were processed

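Libraries of whole olfactory mucosa were compared by odorant and dose as the labels give them. Per the labels and methods, the reference was GENCODE M25 on GRCm38.p6 with 1 gene model removed, STAR was the aligner (up to 10 alignments per read), and RSEM gave the gene quantities. The expected counts deposited by the authors are whole numbers, not normalized, for 1117 OR genes in 10 tables, so a library's depth here is its OR total (27301 to 160001 reads). Reads shared with near-identical genes were divided by RSEM. The authors' log2 fold changes, logCPM, likelihood ratios, p-values and FDR in the same tables were not used. In the table of 2-heptanone the 6 per-sample columns match no listed sample, so 2-heptanone was not analysed here.

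Counts were tested in R 4.3.3 by edgeR 4.0.16 (scaling by TMM over ORs, at least 10 reads over the 6 libraries of a comparison, glmQLFTest, Benjamini-Hochberg over ORs tested, threshold 0.05). The SE is the fold change divided by the square root of F. Shares are percent of OR reads. Exact permutation tests were two-sided, on log2 shares per 100000 OR reads plus 5. Alternatives were DESeq2 1.42.0, library totals, a minimum of 1 read, the likelihood ratio test, replicate and label prefix blocks, a single fit of 51 libraries and leaving out each library.

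Positions and coding sequences came from GENCODE M21 on GRCm38 (all 1117 ORs matched, 1114 with a coding sequence). Identity of proteins was planned but coding sequences were aligned instead (Biopython 1.88, match 5, mismatch penalty 4, gap opening penalty 10, gap extension penalty 0.5). Identity is the number of matching bases in percent of the shorter coding sequence. Similar patterns were sought among ORs with at least 10 reads in at least 10 libraries. ORs named are the members, for each the 5 ORs most similar in pattern, the 5 closest relatives and every OR within 100 kb, and any others are said to be named after their values were seen. The members and lists were chosen with earlier results of these data known. Same-numbered odor and control libraries deviated together after 2,5-DMP, β-caryophyllene, DHB, CPD, 1% SBT and 100% SBT. Their correlations were over 0.1 for all 3 numbers, at 0.109 to 0.318. After farnesene, 0.01% SBT and both MTMT doses the correlations were positive as well, at 0.053 to 0.157, but not over 0.1 for all 3 numbers. A shared deviation is therefore not absent there. The main fits, with their SEs and p-values, took no account of the number. It was fitted as a block only among the alternatives. The methods describe litter-matched mice, 3 per group, without saying that a number marks a litter.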

Additional observations from a re-analysis of the deposited data

Results flagged for a closer look

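The response of Olfr11 to SBT differed between doses when the difference itself was tested. Its high share at 100% SBT was known when it was taken up, so the test is not independent of that choice. It was higher at 100% than at 1% SBT by 3.09 on the log2 scale, with the same controls, and higher at 100% than at 0.01% SBT by 3.27, each dose against its own controls. All 3 libraries at 100% SBT stood above all libraries of the other SBT doses and of both control groups. The 1% and 100% SBT libraries were also the libraries with the shallowest controls, and the part of depth in the result was not tested.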

How the results depend on the processing

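Olfr11 stayed past the threshold after 100% SBT in all 13 alternatives run. Its log2 fold changes were 2.61 to 3.15, with adjusted p of 1.293e-15 to 0.000917 over the edgeR and DESeq2 fits. Olfr11 also stayed past the threshold in the 11 alternatives for 100% against 1% SBT (2.75 to 3.64) and the 16 for 100% against 0.01% SBT (2.85 to 3.42). All of these reuse libraries whose response was known when Olfr11 was taken up, so they show only the dependence on processing. Without each library in turn the farnesene values, given with no test, were 2.65 to 2.82 for Olfr11 and 2.61 to 2.97 for Olfr1312. No other comparison of either receptor passed the threshold in any alternative. Some of these values near 0 changed sign. For Olfr11 after 10 mM MTMT they became -0.29 with library totals, -0.026 with DESeq2, -0.0078 with the label prefix as a block, -0.0225 in the single fit of all libraries, and -0.25 to 0.23 with a library left out. For Olfr1312 after 100% SBT the value was -0.34 with library totals and -0.20 to 0.33 with a library left out. With a library left out, it was -0.60 to 0.24 for Olfr11 after 1% SBT, and for Olfr1312 -0.11 to 0.27 after 2,5-DMP, -0.0543 to 0.359 after 100 μM MTMT and -0.173 to 0.0935 after β-caryophyllene. The causes were not tested.

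With the replicate number as a block, Olfr11 had 3.00 after 100% SBT (edgeR adjusted p = 3.435e-06), 3.15 for 100% against 1% SBT (edgeR adjusted p = 5.798e-06) and -0.0044 after 10 mM MTMT. The block raised the number of ORs past the threshold from 9 to 17 after 2,5-DMP and from 3 to 6 after 100 μM MTMT, and it changed no call of either receptor.

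Over all ORs, the number past the threshold after farnesene was 19, against 12 in the single fit and 8 to 28 with a library left out. After 2,5-DMP it was 9, against 15 by the likelihood ratio test. After 100 μM MTMT it was 3, against 5 with library totals, with DESeq2 and with no filter, 7 by the likelihood ratio test, 0 in the single fit and 1 to 5 with a library left out. After 10 mM MTMT it was 0, against 15 with DESeq2, 5 by the likelihood ratio test, 29 in the single fit and 0 to 38 with a library left out. After CPD it was 0, against 1 with DESeq2, by the likelihood ratio test and in the single fit, and 0 to 1 with a library left out. With a library left out it was 3 to 5 after 0.01% SBT (5 with all) and 0 to 8 after 1% SBT (9 with all), where the likelihood ratio test gave 15 and the single fit 28. After 100% SBT, library totals gave 85 ORs higher and 42 lower, against 112 and 8.

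Of the 5 ORs most similar to Olfr11, 2 were again among the 5 with Spearman's correlation and 3 with correlations of log2 fold changes, and of those of Olfr1312, 1 and 3. The controls of 1% and 100% SBT held as few as 27301 OR reads and 10 reads of Olfr1312, which limits the precision of its values there.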
